A study of Rattus norvegicus with 24 samples.

Results

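Astrocytes are glial cells that clear glutamate and potassium released at synapses, supply neurons with metabolites and lipids, and contact blood vessels with water-channel-rich endfeet. They are joined into networks by gap junctions, and in the striatum they tile both the dorsal and the ventral division. The 10 genes described here cover astrocyte identity, metabolism and coupling, were chosen by name, and are 10 of the 17303 genes of the deposited expression table. Gfap encodes the intermediate filament of the astrocyte cytoskeleton, S100b a calcium-binding protein and Aldh1l1 a folate-metabolising enzyme used as a general astrocyte marker. Apoe and Clu encode secreted lipid-carrying proteins. Glul encodes glutamine synthetase, which turns glutamate into glutamine, and Slc7a10 an exchanger of small neutral amino acids that carries serine and glycine. Gjb6 encodes the gap junction protein connexin 30, Mlc1 a membrane protein of perivascular endfeet linked to volume regulation, and Aqp4 the water channel of those endfeet. All 10 genes were above the lowest listed value in every library of both regions.

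The study sequenced poly(A)-selected RNA of whole tissue taken at postnatal day 90 from male Sprague-Dawley rats. Tissue came from the nucleus accumbens (NAc, the ventral division) or the dorsolateral striatum (DLS). In each region 4 groups of 3 libraries were compared. The LPS stressed group came from dams injected with lipopolysaccharide, a bacterial cell-wall component used to activate the maternal immune system, on gestational days 15 and 16, and was exposed to unpredictable stress during adolescence. The LPS unstressed group had the same prenatal exposure and was only handled, and the saline stressed group had saline-injected dams and was stressed. The controls had saline-injected dams and were only handled, so every group had injected dams and none was left without an injection. The labels do not say which libraries come from the same rat or litter, and p-values reflect how far single libraries vary. In bulk tissue fewer astrocytes and less RNA per astrocyte cannot be told apart.

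Values are relative log2 expression. The deposited values have lost their decimal point, so each is known only up to a power of 10. A gene was read only where the digits of all its libraries, powers of 10 set aside, lay within 0.5 decades (3.162-fold) of each other. Levels are therefore comparable between libraries of a gene but not between genes, and sequencing depth is unknown. A difference above 3.162-fold could not be seen as such. One near 10-fold would be read as small, or in the wrong direction. All 10 astrocyte genes could be read within NAc (10616 genes in all) and within DLS (9275), and 8 over both regions together (7667). Gfap and Gjb6 spanned 0.62 and 0.729 decades over both regions and are described within each region only. Clu and Slc7a10 share their listed loci with Scara3 and Lrp3, so their values are uncertain. Of 16 projection neuron markers, 14 were read in NAc and 13 in DLS libraries, and 0 of the 15 in the table were at the lowest listed value throughout. Of the markers that tell the regions apart, 2 of 12 accumbens markers and 3 of 8 dorsolateral markers could be read over both regions, and in each set members were called in both directions.

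In the deposited table Gfap lies at chromosome 10, 90763149 to 90771823, S100b at chromosome 20, 15287747 to 15296457, and Aldh1l1 at chromosome 4, 186990815 to 187030955. Apoe is listed at chromosome 1, 81878371 to 81882298, Clu at chromosome 15, 48926520 to 48986864, and Gjb6 at chromosome 15, 41248074 to 41256852. Glul is listed at chromosome 13, 76294470 to 76303626, Slc7a10 at chromosome 1, 92563399 to 92593301, Mlc1 at chromosome 7, 129636391 to 129656289, and Aqp4 at chromosome 18, 6720758 to 6737507. The genome build of these coordinates is not given in the sources used here.

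Only some of the 45 pairs of astrocyte genes in each region were tested for correlation across libraries. Pairs left untested include Aldh1l1 with Clu (r = 0.88) and S100b with Aldh1l1 (r = 0.88) in DLS. Mlc1 with Aqp4 in NAc (r = 0.79) was not tested either. Among the pairs tested, S100b and Apoe correlated in both regions and Glul and Aqp4 in DLS. Aldh1l1 and Gjb6 also passed in both regions, in NAc close to the threshold, and their windows are not printed. The RefSeq promoter windows of S100b, Apoe, Glul and Aqp4 (build GRCr8, 250 bases before to 50 bases after the start) are printed here so that the pairs can be set side by side. A link between letters and correlation was not tested. Capitals mark TTGGC (the NFI half-site) or GGGCGG (the GC box) on either strand, which read GCCAA and CCGCCC on the other. The S100b window is chr20:12381032-12381331 on the minus strand, Apoe is chr1:88485767-88486066 minus, Glul is chr13:68519250-68519549 plus and Aqp4 is chr18:6798793-6799092 minus.
S100b: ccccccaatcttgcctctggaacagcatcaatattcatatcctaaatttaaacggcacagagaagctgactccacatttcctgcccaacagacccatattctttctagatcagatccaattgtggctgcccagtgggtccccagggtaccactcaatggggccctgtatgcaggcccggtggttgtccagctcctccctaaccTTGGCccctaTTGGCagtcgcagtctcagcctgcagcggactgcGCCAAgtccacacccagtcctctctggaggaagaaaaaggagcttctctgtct
Apoe: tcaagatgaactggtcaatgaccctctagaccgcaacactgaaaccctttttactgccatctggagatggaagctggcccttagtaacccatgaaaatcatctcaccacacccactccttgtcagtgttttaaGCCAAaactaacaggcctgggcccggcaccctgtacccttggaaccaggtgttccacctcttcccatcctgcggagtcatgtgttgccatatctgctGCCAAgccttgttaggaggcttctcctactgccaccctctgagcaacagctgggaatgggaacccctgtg
Glul: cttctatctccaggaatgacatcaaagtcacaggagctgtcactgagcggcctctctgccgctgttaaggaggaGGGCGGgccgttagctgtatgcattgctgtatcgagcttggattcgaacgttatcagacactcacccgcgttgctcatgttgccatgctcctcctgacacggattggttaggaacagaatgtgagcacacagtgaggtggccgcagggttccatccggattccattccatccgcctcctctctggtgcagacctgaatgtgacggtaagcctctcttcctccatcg
Aqp4: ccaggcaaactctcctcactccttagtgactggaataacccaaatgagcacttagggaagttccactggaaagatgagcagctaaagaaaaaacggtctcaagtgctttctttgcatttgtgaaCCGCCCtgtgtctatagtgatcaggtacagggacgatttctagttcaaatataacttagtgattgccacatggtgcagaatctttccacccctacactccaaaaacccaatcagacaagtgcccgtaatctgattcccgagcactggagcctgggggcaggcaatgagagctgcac
TTGGC stood in 3 of the 9 astrocyte gene windows that matched RefSeq, those of S100b, Apoe and Mlc1, against 45.8% of 33469 promoter windows of the same length. In S100b its first bases lay 47, 37 and 3 bases before the start, and in Apoe 117 and 20. GGGCGG stood in 5 of 9 windows (Aldh1l1, Gjb6, Glul, Slc7a10 and Aqp4), against 33.1% of all windows, 176 bases before the start in Glul and 126 in Aqp4. TATAAA (14.2% of all windows) and TTCNNNGAA, the STAT site (8.87%), stood in 0 of 9. These matches describe letters only, and the motifs do not overlap in the windows printed. The listed locus of Glul is 9157 bases long and its RefSeq gene 66055, so its window may not lie at the start of the listed locus.

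The regions differed in every astrocyte gene that could be read over both. Relative to DLS, NAc libraries had lower S100b, Apoe, Slc7a10, Aldh1l1, Clu and Mlc1 and higher Aqp4 and Glul. By limma with Benjamini-Hochberg adjustment 8 of 8 passed, 6 lower and 2 higher, in a comparison where 66% of all genes passed (39.7% lower and 26.2% higher), so passing sets these genes apart from few others. The median of the 8 was -0.34, against -0.08 over all genes.

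S100b had a lowest, median and highest relative log2 value of -0.82, -0.67 and -0.26 in NAc libraries, against -0.38, -0.05 and 0.71 in DLS libraries, with 0 set at the DLS mean. Of 12 NAc libraries 10 lay below every DLS library, and the mean difference was -0.61 ± 0.07 (SE; 0.655-fold; adjusted p = 8.052e-07). Among the lipid carriers, Apoe stood at -0.91, -0.77 and -0.12 in NAc, against -0.50, 0.03 and 0.59 in DLS. Its difference of -0.69 ± 0.09 (0.621-fold; adjusted p = 3.262e-06) was carried by 10 NAc libraries below every DLS library, while the other two reached into the DLS range. Aldh1l1 was at -0.56, -0.33 and -0.11 in NAc, against -0.30, -0.04 and 0.56 in DLS. Here 6 NAc libraries were below the DLS range, and the difference was -0.34 ± 0.06 (adjusted p = 0.000108). Clu differed by -0.33 ± 0.07 (adjusted p = 0.000318), with 7 NAc libraries below the DLS range.

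Slc7a10, the serine and glycine exchanger, was at -0.78, -0.43 and -0.30 in NAc, against -0.41, -0.02 and 0.69 in DLS, and 6 NAc libraries were below the DLS range. The difference was -0.46 ± 0.08 (adjusted p = 6.527e-05). Glul, the glutamine synthetase gene, went the other way, at 0.07, 0.36 and 0.68 in NAc, against -0.49, 0.07 and 0.54 in DLS. Its difference of 0.37 ± 0.11 (1.29-fold; adjusted p = 0.00506) left most libraries of the regions overlapping, since 2 NAc libraries exceeded the highest DLS library. Between the endfoot genes the direction differed. Aqp4 stood at 0.03, 0.58 and 0.98 in NAc, against -0.42, -0.02 and 0.42 in DLS, and 9 NAc libraries were above every DLS library (0.55 ± 0.11; 1.47-fold; adjusted p = 0.00026). Mlc1 was at -0.50, -0.28 and 0.11 in NAc, against -0.35, -0.04 and 0.45 in DLS. With 1 NAc library below the DLS range and a difference of -0.23 ± 0.08 (adjusted p = 0.0197), Mlc1 was the smallest of the 8, and it did not pass after median rescaling (-0.16; adjusted p = 0.114).

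**Figure D1:**
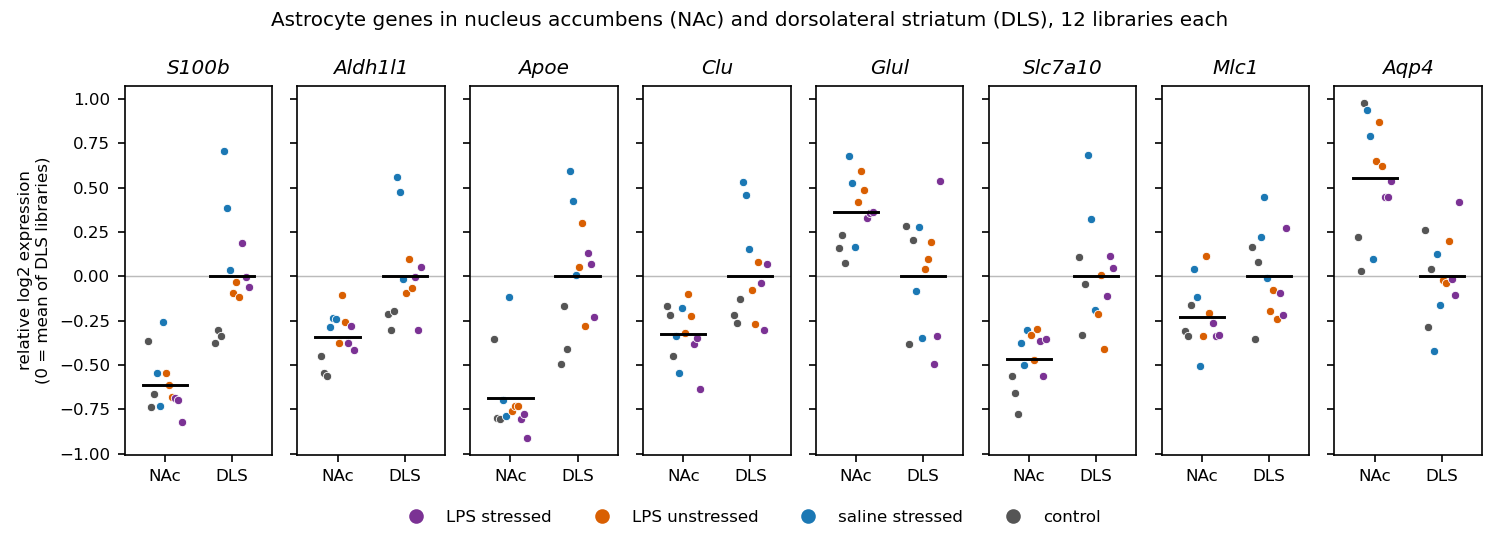
Relative log2 expression of 8 astrocyte genes in 12 NAc and 12 DLS libraries (0 is the DLS mean), 1 point per library, coloured by exposure group, with a line at each region's mean. S100b and Apoe show 10 of 12 NAc libraries below the DLS range, and Aqp4 shows 9 of 12 above it.

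The regional difference was also computed within each exposure group. Among saline stressed rats S100b differed by -0.89, Apoe by -0.88, Clu by -0.73, Slc7a10 by -0.67 and Aldh1l1 by -0.60, and in these 5 genes all NAc libraries lay below all DLS libraries (23.3% of all genes, with 16.6% above). Among controls the same differences were -0.25, -0.29, -0.07, -0.58 and -0.28, and Slc7a10 and Aldh1l1 were the 2 genes without overlap (21.1% of all genes below and 12.8% above). LPS stressed rats had non-overlapping values for S100b (-0.78), Apoe (-0.82), Slc7a10 (-0.45), Clu (-0.36), Mlc1 (-0.29) and Aqp4 (0.38), where 28.1% of all genes were below and 18.3% above. LPS unstressed rats had them for S100b (-0.53), Apoe (-0.76), Aldh1l1 (-0.23), Glul (0.39) and Aqp4 (0.67), where 29.9% were below and 19.5% above. In that group Mlc1 did not differ in the direction of its average (0.03, with overlap). A test of whether the stress effect, averaged over prenatal exposure, differed between NAc and DLS had unadjusted p under 0.05 for 2 of 8 genes, both lower, against 3.17% of all genes in either direction and 1.57% lower. These were Clu (-0.45 ± 0.14) and S100b (-0.44 ± 0.14), and neither passed adjustment by limma (adjusted p = 0.934 for both). The same test of the LPS effect gave 0 of 8, against 1.5% of all genes. Without DLS saline stressed replicate 3 the counts were 5 of 8 for stress (5.11% of all genes) and 2 of 8 for LPS (1.42%). The count for stress was 3 of 8 without DLS LPS unstressed replicate 2 (4.55%), NAc saline stressed replicate 3 (11.1%) or DLS LPS stressed replicate 3 (10.3%; 1 of the 3 higher), and the count for LPS was 1 without DLS control replicate 2 (2.27%) or DLS LPS unstressed replicate 2 (1.32%).

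Cytosolic ribosomal protein genes moved along with the region. Their mean relative log2 value over 17 genes, the ribosomal index, was -0.88 to -0.24 (median -0.76) in NAc and -0.46 to 0.44 (median 0.03) in DLS. With this index as a covariate the number of genes called was 1419 in place of 5057. S100b (-0.34; adjusted p = 0.0217), Clu (-0.35; adjusted p = 0.0419) and Mlc1 (-0.44; adjusted p = 0.0241) still passed. Aldh1l1 (-0.30; adjusted p = 0.062), Slc7a10 (-0.31; adjusted p = 0.121), Apoe (-0.19; adjusted p = 0.139) and Aqp4 (0.09; adjusted p = 0.719) did not pass, and Glul changed sign (-0.07; adjusted p = 0.777). Since the index itself differs by region, region and index cannot be told apart for these genes. Markers of other cell types differed by region too. Of 13 readable oligodendrocyte markers 12 were lower in NAc (median -0.46), and of 7 endothelial markers 4 were higher and 1 lower. Their part in the differences of the astrocyte genes was not tested.

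Other astrocyte markers did not follow a single direction between regions. Of 19 that could be read out of 36 listed, 7 were higher in NAc, 7 were lower and 5 did not pass (median 0.04). The lower ones included Cldn10, a claudin (-0.63 ± 0.07; adjusted p = 7.797e-07), and Cst3, the secreted protease inhibitor cystatin C (-0.77 ± 0.10; adjusted p = 1.605e-06). Genes of serine and glycine handling had 5 lower and 0 higher of 11 (median -0.19), among them Psph, the last enzyme of serine synthesis (-0.52 ± 0.08). Lipoprotein and cholesterol genes had 6 higher and 7 lower of 14, with the lipoprotein receptor gene Vldlr at 0.70 ± 0.10 and Nr1h2, a sterol-sensing nuclear receptor gene, at -0.70 ± 0.06. Reactive astrocyte genes, which increase in injured tissue, could be read in 6 of 28 cases. Of these Stat3, a transcription factor of that response named for its small p, was higher in NAc (0.34 ± 0.07). Stat3 does not stand for the list, and the direction of its other readable genes is not given here.

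Within DLS the largest departures from controls were in the saline stressed group, where S100b, Apoe and Gjb6 had means at least 0.70 above the control mean. No astrocyte gene passed adjustment against controls (0 of 10, against 0% of 9275 genes; smallest adjusted p = 0.294 by limma). At an unadjusted p under 0.05 there were 5 of 10 (S100b, Apoe, Clu, Aldh1l1 and Gjb6), all higher, against 14.6% of all genes in either direction and 8.3% higher. The median difference of the 10 was 0.57, against 0.02 over all genes, and 8 were positive. In 4 genes, S100b, Aldh1l1, Apoe and Clu, all saline stressed libraries lay above all controls, which held for 14.9% of all genes. With 1 DLS library left out, 4 to 6 of the 10 had an unadjusted p under 0.05. The share of all genes was then 5.15% without saline stressed replicate 1, where 5 of the 10 were counted, and 19.5% without LPS stressed replicate 3, where 5 were counted as well.

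S100b stood at 1.04, 0.73 and 0.37 in saline stressed libraries 1 to 3, against -0.04, 0.04 and 0.00 in controls, with 0 at the control mean. All stressed libraries were above the narrow control range, and replicate 1 was highest (0.71 ± 0.16 SE; 1.64-fold; 95% interval 0.37 to 1.06). Apoe was at 0.95, 0.78 and 0.36 in saline stressed libraries, against -0.14, 0.19 and -0.05 in controls (0.70 ± 0.19; 1.62-fold). Clu was at 0.73, 0.67 and 0.36 in saline stressed libraries, against -0.02, -0.06 and 0.08 in controls (0.59 ± 0.15). In both lipid carriers replicate 1 was highest and replicate 3 lowest, an order also seen in S100b, Aldh1l1, Gjb6 and Slc7a10. Among S100b, Apoe, Clu, Aldh1l1 and Gjb6 r over the DLS libraries ran from 0.56 (Apoe and Clu) to 0.89 (S100b and Apoe). The genes counted after stress alone are therefore not independent of each other. Aldh1l1 was at 0.80, 0.71 and 0.22 in saline stressed libraries, against 0.03, -0.07 and 0.04 in controls (0.58 ± 0.17; 1.49-fold).

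Gjb6, the connexin gene, was at 1.17, 0.92 and 0.14 in saline stressed libraries, against -0.02, -0.28 and 0.30 in controls. Replicate 3 fell inside the control range, and the difference of 0.74 ± 0.28 was 0.53 without saline stressed replicate 1 and 1.05 without replicate 3. Gfap was at 0.18, 1.05 and 0.45 in saline stressed libraries, against -0.14, -0.07 and 0.21 in controls (0.56 ± 0.26). Gfap was highest in replicate 2, and its difference was 0.31 without that library. Slc7a10 differed by 0.36 ± 0.21 (0.15 without saline stressed replicate 1 and 0.59 without replicate 3) and Mlc1 by 0.26 ± 0.18 (0.10 without control replicate 2), with overlapping groups. Glul (-0.09 ± 0.27) and Aqp4 (-0.16 ± 0.20) differed by less than their SE. Their 95% intervals ran from -0.67 to 0.49 and from -0.58 to 0.27.

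**Figure D2:**
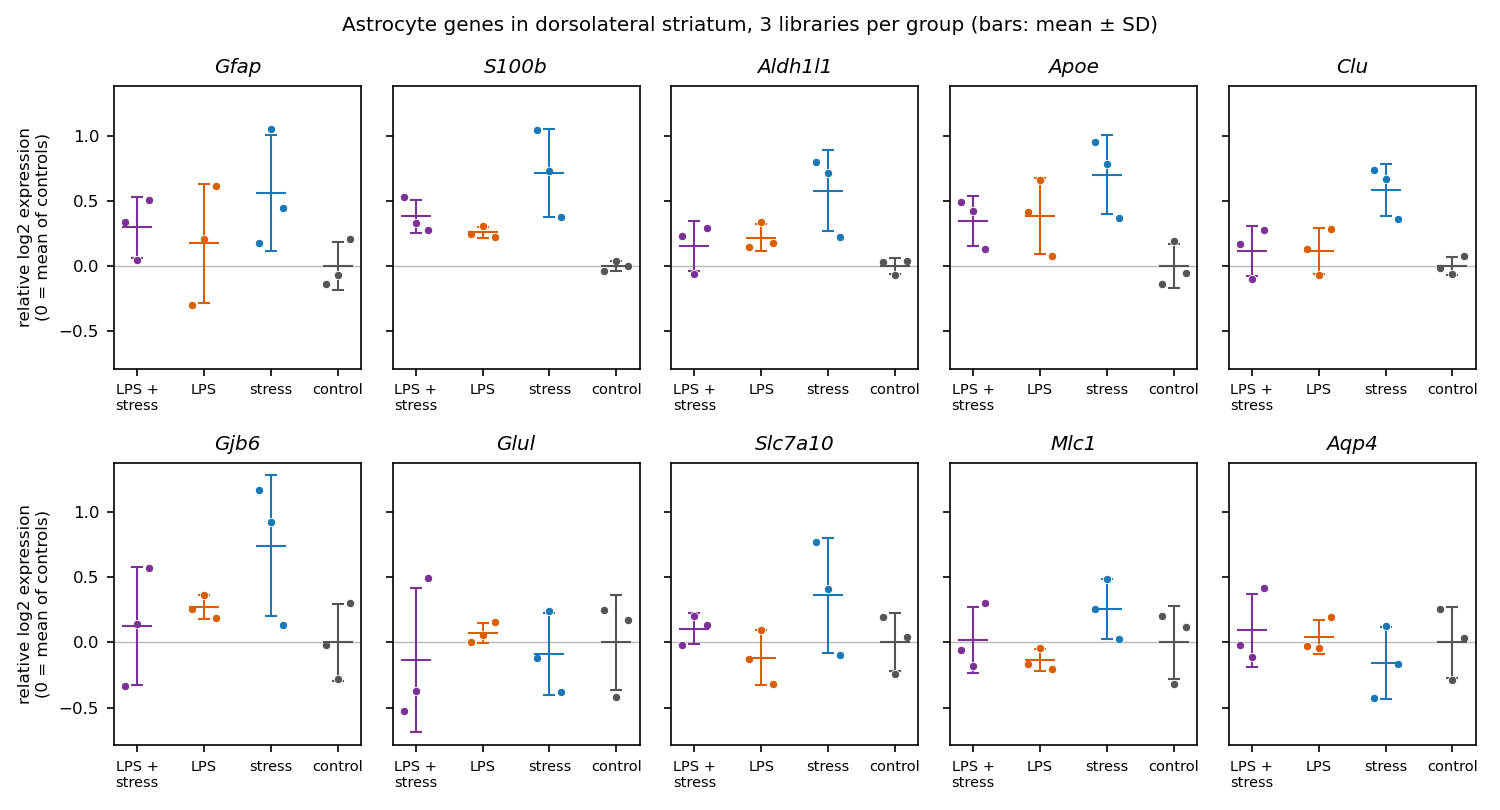
Relative log2 expression of the 10 astrocyte genes in the 4 DLS groups (0 is the control mean), with points for the 3 libraries of a group and bars for mean ± SD. The saline stressed group is highest for S100b, Aldh1l1, Apoe and Clu, where it does not overlap the controls.

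The groups with prenatal LPS were set against the same DLS controls. In LPS unstressed rats 0 of 10 genes had an unadjusted p under 0.05 (3.25% of all genes), with a median of 0.14. Without LPS unstressed replicate 3 the count was 1 of 10 (10.3% of all genes). S100b stood at 0.25, 0.31 and 0.22 in LPS unstressed libraries and Aldh1l1 at 0.15, 0.34 and 0.17, each above all 3 controls, as for 5.33% of all genes. In LPS stressed rats S100b was at 0.53, 0.33 and 0.28, again above all controls (0.38 ± 0.16), as for 3.99% of all genes. It was the 1 of 10 at an unadjusted p under 0.05 (3.27% of all genes; 1.7% higher), the median of the 10 was 0.12, and no other gene was free of overlap. Without any 1 control, or without LPS stressed replicate 1 or 2, that count was 0, and without LPS stressed replicate 3 it was 1 while 20.3% of all genes were counted. In S100b, then, the control mean was the lowest of the 4 group means and the saline stressed mean the highest. Averaged over stress, the LPS effect ranged from -0.19 to 0.15, and 0 of 10 had an unadjusted p under 0.05 (1.61% of all genes; 1 of 10, lower, without saline stressed replicate 3).

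The interaction asks whether stress had another effect in LPS offspring than in saline offspring. In DLS it was negative in 9 of 10 genes, with a median of -0.51 against -0.03 over all genes. At an unadjusted p under 0.05 there were 5 of 10, all lower, against 5.19% of all genes in either direction and 2.84% lower. They were Gjb6 (-0.89 ± 0.39), Apoe (-0.73 ± 0.28), Aldh1l1 (-0.64 ± 0.23), S100b (-0.59 ± 0.23) and Clu (-0.59 ± 0.22). None passed adjustment by limma (adjusted p = 0.829), and at an unadjusted p under 0.05 there were 2 of 10 without saline stressed replicate 1 (2.35% of all genes) and 3 without LPS unstressed replicate 2 (4.21%) or LPS stressed replicate 2 (6.18%). The controls and the saline stressed libraries enter both this estimate and the comparison of stress alone, so the results are not independent. Averaged over prenatal exposure, stress gave 4 of 10 genes an unadjusted p under 0.05, all higher (7.29% of all genes; 3.72% higher): S100b (0.42 ± 0.11), Apoe (0.33 ± 0.14), Clu (0.29 ± 0.11) and Aldh1l1 (0.26 ± 0.12). That count was 2 without control replicate 1 (4.37% of all genes) or 3 (4.46%), saline stressed replicate 2 (6.29%) or LPS stressed replicate 1 (3.83%), and 6 without saline stressed replicate 3 (9.25%). Without LPS stressed replicate 3 it was 3 of 10 while 22.9% of all genes were counted, so that the members were then near the share of all genes.

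The ribosomal index, here over 54 genes, was 0.86, 0.32 and 0.33 in saline stressed DLS libraries, against -0.18, 0.37 and -0.18 in controls, so 2 of 3 controls were below all stressed libraries. In LPS stressed libraries it was 0.82, 0.63 and -0.16, and in LPS unstressed ones 0.52, 0.72 and -0.20. With the index as a covariate S100b differed by 0.59, Clu by 0.67, Gfap by 0.82 and Apoe by 0.44 after stress alone. Glul and Aqp4 changed sign (0.23 and 0.10). Markers of microglia, the resident immune cells, also differed. The mean of 11 readable genes out of 15 was 0.65, 0.50 and 0.10 in saline stressed libraries, against -0.03, -0.09 and 0.12 in controls. In 6 of the 11 the value was higher and in 1 lower at an unadjusted p under 0.05, with a median of 0.60, and none of the 14 in the table was at the lowest listed value in all DLS libraries. After stress alone 14.6% of all genes had such a p (8.3% higher), which is the share for the lists below as well. Oligodendrocyte precursor markers had 6 of 7 readable genes positive after stress alone (median 0.33; 2 higher and 0 lower at an unadjusted p under 0.05). Their mean was 0.08, 0.62 and 0.05 in saline stressed libraries, against 0.06, -0.13 and 0.07 in controls, so replicate 2 stood apart. Leptomeningeal markers, of the membranes around the brain, had 5 of 7 positive (median 0.35; 1 higher and 0 lower), with a mean of 0.32, 0.12 and 0.34 in saline stressed libraries, against 0.09, -0.08 and -0.01 in controls. The 1 was Islr (0.84 ± 0.18), and averaged over prenatal exposure 7 of 7 were positive (median 0.37; 4 higher, against 3.72% of all genes). Of the 12 leptomeningeal genes Col1a2 was at the lowest listed value in all libraries of both regions. The part of these in the differences of the astrocyte genes was not tested.

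Other astrocyte markers were read in 25 of 36 cases in DLS. Of these, 20 were positive after stress alone with a median of 0.17, and 5 were higher at an unadjusted p under 0.05 with 0 lower. Among all genes 14.6% had such a p in either direction and 8.3% were higher. The 5 included Aldoc, a glycolytic enzyme enriched in astrocytes (0.49 ± 0.17), and Cbs, an enzyme of homocysteine metabolism (0.46 ± 0.16). Neither passed adjustment by limma (adjusted p = 0.294). Reactive astrocyte genes had a median of -0.02, with 4 of 8 positive. Genes of glutamate, glutamine and lactate metabolism had a median of -0.01, with 10 of 20 positive.

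In NAc all exposed libraries stood above all controls in Aldh1l1 and Slc7a10, as did both LPS groups in Glul and the saline stressed group in Gjb6. Taken group by group, this held for 2.11% of all genes after stress alone, 4.84% after LPS alone and 3.41% after both exposures. The share for all exposed libraries at once was not computed. After stress alone 4 of 10 astrocyte genes (Gjb6, Glul, Slc7a10 and Aldh1l1) had an unadjusted p under 0.05, all higher, against 1.29% of all genes in either direction and 0.876% higher. After LPS alone there were 3 of 10 (Glul, Slc7a10 and Aldh1l1), all higher (3.06% of all genes; 1.64% higher), and after both exposures 1 of 10, Slc7a10, higher (2.08%; 1.16% higher). None passed adjustment by limma (0 of 10, against 0% of 10616 genes, in each comparison). All 3 comparisons share the controls. The count after stress alone was 1 without control replicate 3 (1.95% of all genes) and 2 without saline stressed replicate 1 (1.5%). It was also 2 without saline stressed replicate 3, where the share of all genes was 15.9%, so that the members were then near it. The count after LPS alone was 1 without LPS unstressed replicate 2 (2.44%). The count after both exposures was 0 in 9 of the 12 fits with 1 library left out, and over the 12 fits 1.18% to 5.44% of all genes were counted. It was 1 or more only without control replicate 1, LPS stressed replicate 2 or saline stressed replicate 3 (2 of 10, with 5.44% of all genes). In a fit of all 24 libraries, which takes 1 spread from both regions, fewer of all genes were counted as well. There the count was 0 of 8 after stress alone (0.535% of all genes) and 1 of 8 after LPS alone (1.58%).

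Aldh1l1 was at 0.14, 0.24 and 0.10 in LPS stressed NAc libraries, 0.14, 0.41 and 0.26 in LPS unstressed ones and 0.23, 0.28 and 0.28 in saline stressed ones, against 0.07, -0.03 and -0.05 in controls. Every exposed library was above every control. The differences were 0.16 ± 0.10 with both exposures, 0.27 ± 0.10 with LPS alone and 0.27 ± 0.10 with stress alone. Slc7a10 had the same layout, at 0.30, 0.10 and 0.31 in LPS stressed libraries, 0.33, 0.19 and 0.37 in LPS unstressed ones and 0.29, 0.16 and 0.36 in saline stressed ones, against 0.10, 0.01 and -0.11 in controls. Its differences were 0.24 ± 0.11 with both exposures, 0.30 ± 0.11 with LPS alone and 0.27 ± 0.11 with stress alone. LPS stressed replicate 2 lay only just above the highest control.

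Glul, the glutamine synthetase gene, was at 0.18, 0.20 and 0.21 in LPS stressed libraries, 0.26, 0.44 and 0.33 in LPS unstressed ones and 0.52, 0.37 and 0.01 in saline stressed ones, against 0.01, 0.08 and -0.08 in controls. Both LPS groups were above all controls, whereas saline stressed replicate 3 was within their range. The differences were 0.20 ± 0.13 with both exposures, 0.34 ± 0.13 with LPS alone and 0.30 ± 0.13 with stress alone. The last was 0.45 without saline stressed replicate 3 and 0.19 without replicate 1. Gjb6 was at 0.45, 0.39 and 0.53 in saline stressed libraries, against 0.30, 0.20 and -0.50 in controls. Control replicate 3 stood far below the other two, and the difference of 0.46 ± 0.18 was 0.21 without it.

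All libraries of an exposed NAc group lay above all controls in Aldh1l1, Gjb6 and Slc7a10 after stress alone (2.11% of all genes). The same held for Aldh1l1, Glul and Slc7a10 after LPS alone (4.84%) and after both exposures (3.41%). S100b and Apoe, which stood apart in DLS, differed in NAc by 0.08 ± 0.14 and 0.12 ± 0.17 after stress alone, by -0.03 ± 0.14 and -0.09 ± 0.17 after LPS alone, and by -0.15 ± 0.14 and -0.18 ± 0.17 after both. Gfap stayed between -0.07 and 0.08 in all 3 comparisons, with an SE of 0.12. Clu, Mlc1 and Aqp4 had an unadjusted p above 0.05 in each of them, and the controls of Aqp4 alone ranged from -0.38 to 0.57.

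**Figure D3:**
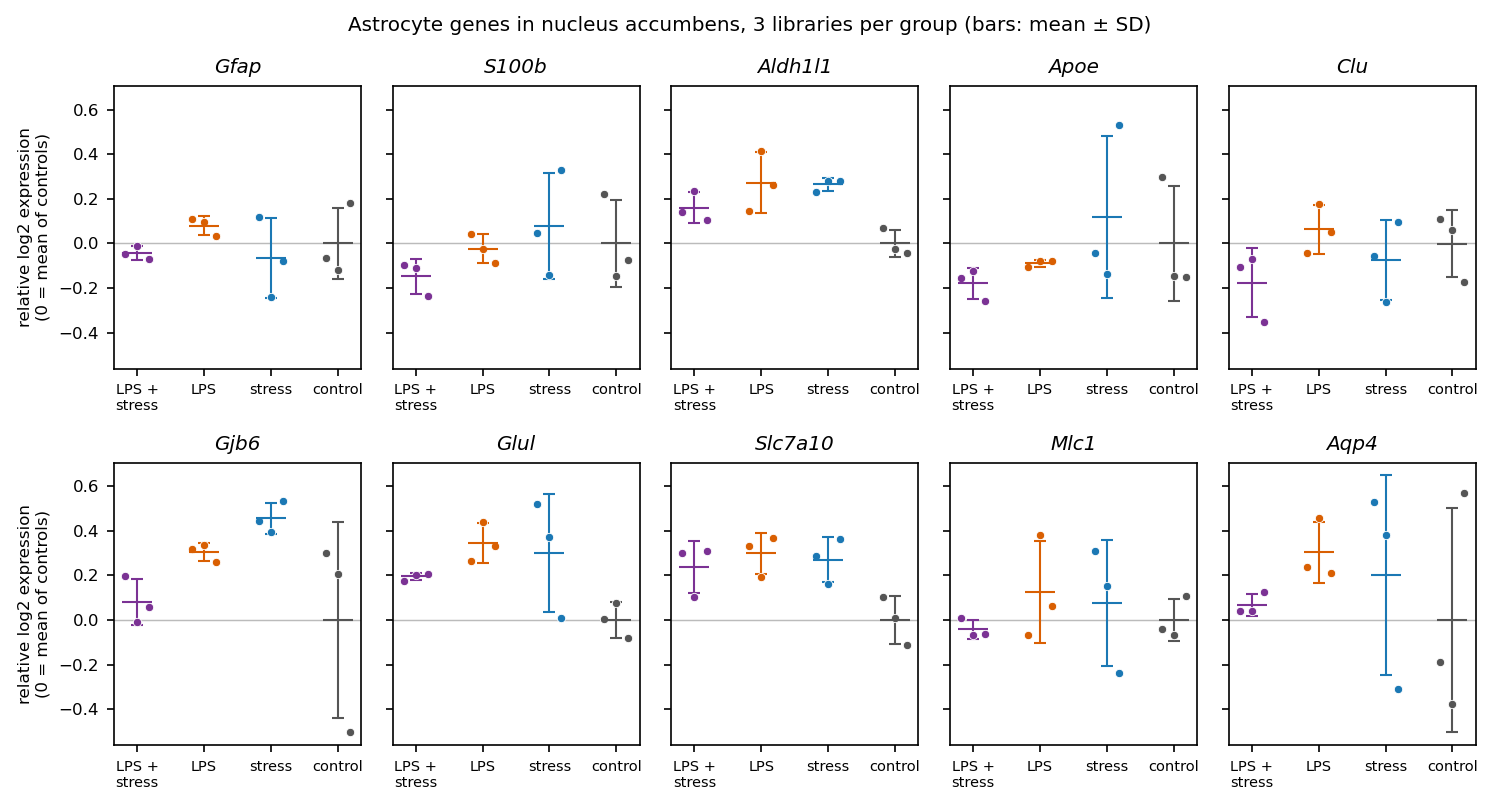
Relative log2 expression of the 10 astrocyte genes in the 4 NAc groups (0 is the control mean), with points for the 3 libraries of a group and bars for mean ± SD. In Aldh1l1 and Slc7a10 every exposed library is above every control, and the control SD of Gjb6 and Aqp4 is wide (0.438 and 0.501).

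The NAc interaction was negative in all 10 genes, with a median of -0.29 against -0.01 over all genes. At an unadjusted p under 0.05 there were 4 of 10, all lower, against 1.78% of all genes in either direction and 1.15% lower. These were Gjb6 (-0.68 ± 0.25; -0.43 without control replicate 3), Glul (-0.45 ± 0.18), Aldh1l1 (-0.38 ± 0.14) and Slc7a10 (-0.33 ± 0.15), and none passed adjustment by limma (adjusted p = 1.00). In the fit of all 24 libraries 0 of 8 had an unadjusted p under 0.05 (0.874% of all genes). There were 2 of 10 in the NAc fits without saline stressed replicate 1 (1.6% of all genes), LPS unstressed replicate 2 (1.35%) or LPS stressed replicate 1 (1.93%). In each of the 4 genes LPS stressed rats had a lower mean than rats with either exposure alone. The same 4 were counted after stress alone. The controls and the saline stressed libraries enter both estimates, so the results are not independent. Averaged over the other factor, stress (0.895% of all genes) and LPS (3.55%) each gave 0 of 10 genes an unadjusted p under 0.05. Without saline stressed replicate 3 stress gave 2, 1 in each direction (4.5%), and without control replicate 3 LPS gave 1, lower (5.03%).

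Markers of other cell types in NAc differed from controls alongside the astrocyte genes. Leptomeningeal markers had a mean of 0.60, 0.14 and -0.01 in LPS stressed libraries, 0.25, 0.32 and 0.32 in LPS unstressed ones and 0.32, 0.27 and 0.49 in saline stressed ones, against -0.04, 0.04 and 0.00 in controls. After stress alone 8 of 8 readable genes were positive (median 0.33; 1 at an unadjusted p under 0.05) and after LPS alone 7 of 8 (median 0.25; 2 at that p). Oligodendrocyte markers were positive in 15 of 15 cases in each of the 3 comparisons, with medians of 0.17 after both exposures, 0.21 after LPS alone and 0.20 after stress alone, and 0, 1 and 0 at an unadjusted p under 0.05. Oligodendrocyte precursor markers were positive in 7 of 7 cases in each, with medians of 0.17, 0.19 and 0.16, and 0, 1 and 2 at that p. Of all genes 2.08% had such a p after both exposures, 3.06% after LPS alone and 1.29% after stress alone. In the interaction 0 of 15 oligodendrocyte, 0 of 7 precursor and 1 of 8 leptomeningeal markers were positive. Their part in the differences of the astrocyte genes was not tested.

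The ribosomal index over 68 genes set apart 2 NAc libraries, control replicate 1 (0.41) and saline stressed replicate 3 (0.38), while the other 10 were between -0.35 and -0.10. The same libraries were the highest in S100b (0.22 and 0.33) and Apoe (0.30 and 0.53). Without both of them, the differences after stress alone were 0.57 for Gjb6, 0.45 for Glul, 0.29 for Aldh1l1 and 0.28 for Slc7a10, and 4 of 10 again had an unadjusted p under 0.05 (7.29% of all genes). No gene of the table passed adjustment by limma in these NAc comparisons. Between regions Mlc1 then did not pass (-0.18; adjusted p = 0.0543), and the other 7 genes did. Of 27 other astrocyte markers readable in NAc, 23 were positive after stress alone (median 0.12; 3 at an unadjusted p under 0.05, against 1.29% of all genes). After LPS alone 23 were positive (median 0.15; 0 at that p, against 3.06%). In the interaction 1 of 27 was positive (median -0.26), with 4 lower at an unadjusted p under 0.05 (1.15% of all genes). Among these 4 were Cbs (-0.62 ± 0.18) and Gpr37l1, an astrocyte-enriched receptor gene (-0.44 ± 0.17).

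Across libraries S100b and Apoe correlated with r = 0.94 and rho = 0.84 over the 12 NAc libraries (permutation p for r = 1e-05, the smallest that the permutations can give) and with r = 0.89 and rho = 0.89 in DLS (permutation p = 9e-05). The adjusted values over the 16 correlations tested were 0.00016 and 0.00048. In each region this pair has the highest r of the 45 pairs of astrocyte genes. The correlations were chosen with earlier results of these data known, and neither p nor adjustment allows for that choice. Without the 2 libraries farthest from the median r was 0.83 in NAc and 0.81 in DLS, and within exposure groups it was 0.94 and 0.76. Glul and Aqp4 correlated in DLS with r = 0.74 and rho = 0.78 (permutation p = 0.00547; adjusted 0.0125; 0.79 without the 2 farthest). In NAc their r was 0.54 and rho 0.50 (permutation p = 0.0678; adjusted 0.0835). Between these pairs, S100b and Aqp4 did not pass in either region. Their r was -0.32 and rho 0.10 in NAc (permutation p = 0.316; adjusted 0.316) and -0.41 and -0.40 in DLS (permutation p = 0.187; adjusted 0.1995), and -0.01 in DLS without the 2 farthest libraries. Aldh1l1 and Gjb6 had r = 0.61 and rho = 0.63 in NAc (permutation p = 0.0344; adjusted 0.05), but 0.22 within groups. In DLS their r was 0.84 (rho 0.69; permutation p = 0.00146; adjusted 0.00389). It was 0.68 within groups and 0.43 without the 2 farthest libraries, so its size depends in part on these libraries.

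**Figure D4:**
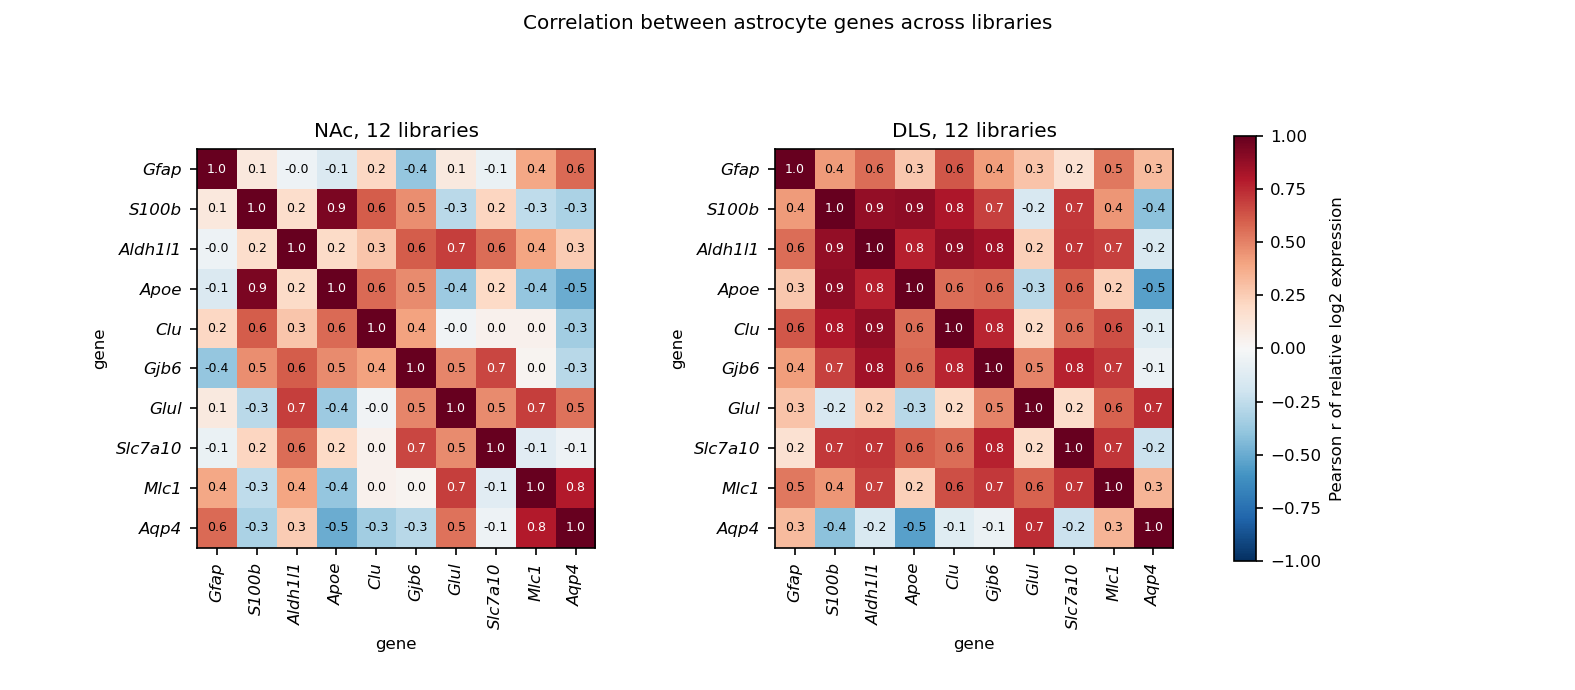
Pearson correlation of relative log2 expression between the 10 astrocyte genes over 12 NAc and 12 DLS libraries, where red is positive and blue negative. S100b and Apoe are at 0.9 in both regions, while Aqp4 is negative or near 0 with most genes other than Glul, Mlc1 and Gfap.

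The ribosomal index was set against 4 of the genes. Apoe correlated with it at r = 0.95 and rho = 0.69 in NAc (permutation p = 0.00075; adjusted 0.003) and at r = 0.83 and rho = 0.81 in DLS (permutation p = 0.00122; adjusted 0.00389). S100b did so at r = 0.93 and rho = 0.83 in NAc (permutation p = 8e-05; adjusted 0.00048) and at r = 0.63 and rho = 0.66 in DLS (permutation p = 0.0254; adjusted 0.0406). Without the 2 farthest libraries the r of Apoe was 0.69 in NAc and 0.77 in DLS, and that of S100b 0.81 and 0.57. In DLS Aqp4 (r = -0.72, rho = -0.70; permutation p = 0.00787; adjusted 0.0157; -0.74 without the 2 farthest) and Glul (r = -0.67, rho = -0.65; permutation p = 0.0213; adjusted 0.0379; -0.64 without them) ran against the index. In NAc neither relation held: r was -0.54 for Aqp4 and -0.44 for Glul (permutation p = 0.0651 and 0.153; adjusted 0.0835 and 0.175), and 0.06 and 0.23 without the 2 libraries that stand apart. What lies behind the index was not tested.

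**Figure D5:**
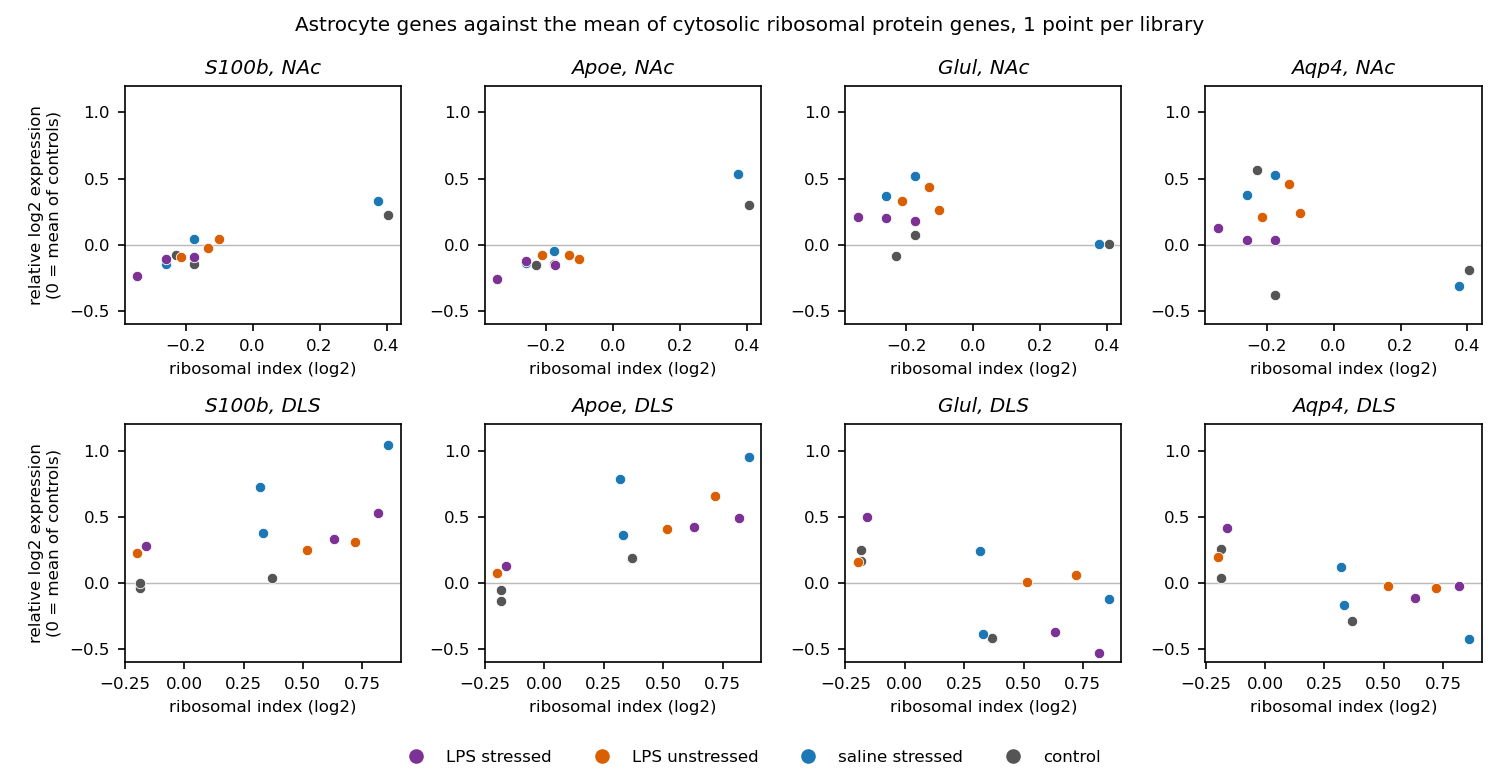
Relative log2 expression of S100b, Apoe, Glul and Aqp4 (0 is the control mean) against the mean relative log2 value of cytosolic ribosomal protein genes, 1 point per library, with NAc in the upper and DLS in the lower row. S100b and Apoe climb with the index in both regions, and Glul and Aqp4 decline with it in DLS.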

How the data were processed

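The labels give 24 libraries in 8 groups of 3. Per the submitters' processing notes, STAR 2.6.25.17 and Cuffdiff 2.2.1 were used, with roles, annotation and build not given in the sources used here. The authors deposited 1 table headed FPKM whose values are digits without a decimal point, so they were treated as a score. Of 415272 values 97026 are listed as 1, which can be a failed estimate: Eno2, a neuronal gene, is at 1 in all DLS libraries. Each gene's log10 digits were laid on a 1-decade circle, and the gene was used where no value was 1 or blank and all libraries lay within an arc of 0.5 decades. This step was chosen with the values known, and it replaces the usual pseudocount and low-value filter.

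limma 3.58.1 in R 4.3.3 was fitted per region with 4 group means (8 residual degrees of freedom), and over all 24 libraries with 8 group means (16) for NAc minus DLS. Benjamini-Hochberg adjustment ran over all genes, with a threshold of 0.05 and 15 comparisons. Data simulated for stress alone in DLS and for NAc minus DLS went through the same steps, with outcomes not reported here. The median 95% half-interval was 0.36 in NAc, 0.417 in DLS and 0.168 between regions. Correlations used 1e+05 permutations, two-sided. Genes of other lists that are named with a difference are the first, or the first 2, by smallest p in their list. Other genes outside the 10 are named for a shared locus, for standing at the lowest listed value, or for their correlation with the mean of the 10. The 10 genes, the lists and the tests were chosen with earlier results of these data known. The alternatives were arcs of 0.3 and 0.7 decades, median rescaling, robust empirical Bayes, the ribosomal index as covariate, a single fit, genes read over both regions, and leaving out each library. Leaving out 2 NAc libraries together was added after seeing the data. Promoter windows are RefSeq's (GRCr8), which held 9 of the 10 genes.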

Additional observations from a re-analysis of the deposited data

How the results depend on the processing

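Absolute level and depth are unknown, so precision rests on 3 libraries per group. In the comparison of NAc with DLS, 5057 genes were called, against 2364 at an arc of 0.3 decades (4111 genes read, of the astrocyte genes only Mlc1), 1419 with the ribosomal index as covariate, and 4846 to 5354 with 1 library left out. Glul changed sign with the covariate between regions (-0.07), and Glul and Aqp4 did so after stress alone in DLS (0.23 and 0.10). With 1 library left out, Glul after stress alone in DLS ranged from -0.30 to 0.06. LPS alone in NAc called 1 gene at an arc of 0.7 decades and 0 to 1 with 1 library left out, and stress alone in NAc also 0 to 1, none of them an astrocyte gene. Of 2016 values of astrocyte genes with 1 library left out, 1922 kept direction and call and 94 changed sign. Outside NAc minus DLS no astrocyte gene passed adjustment, so keeping the call there meant staying uncalled. Unadjusted counts moved more, as from 4 to 1 of 10 after stress alone in NAc without control replicate 3. Of 933 values under the other settings, 894 kept both, 6 lost a call (all in NAc minus DLS) and 33 changed sign. No paired analysis was possible because the labels number each library separately and do not tie libraries to a rat, litter or day.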

Other observations

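The genes whose deviations from their group means ran most closely with the mean of the 10 astrocyte genes were different in the 2 regions. Over 12 NAc libraries and 10324 genes they were Bphl (r = 0.943), Pla1a, Mif4gd, Abhd3 and Naprt1 (r = 0.876). Over 12 DLS libraries and 9018 genes they were Fam181b (r = 0.947), Fzd9, Ube3b, Mapkapk2 and Ubqln4 (r = 0.939). These values describe the ranking and carry no test.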
